A study of Mus musculus with 8 samples.

Results

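The OGT chromatin partners and TET enzymes are 10 genes: Hcfc1, Tet1, Tet2, Tet3, Bap1, Asxl1, Asxl2, Foxk1, Foxk2 and Sin3a. They were taken by symbol from the 56691 gene IDs of the deposited count table. All 10 were found, each once, and all 10 passed the filter on low counts, among 19912 genes tested. The counts come from ribosome-bound mRNA of the mouse ventral tegmental area, a midbrain region rich in dopamine neurons. The knockdown group holds 4 libraries from Ogt flox+/Y males, replicates 2, 3, 4 and 5. The control group holds 4 libraries from Ogt flox-/Y males, replicates 3, 4, 5 and 6. Mice of both groups were given a Cre virus driven by a tyrosine hydroxylase promoter (AAV-TH-Cre) and a Cre-dependent virus for HA-tagged NBL10 (AAV-Flex-NBL10), so the controls carry Cre as well. The labels mark the flox+/Y libraries as KO and the flox-/Y libraries as WT. The comparison asks what changes in the tagged neurons when Ogt is knocked down. Age and time after injection are not given in the sources used here. The labels do not say whether replicates are separate animals, so p-values cover the spread between libraries only, which may be technical.

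OGT is the enzyme that adds the sugar O-GlcNAc to nuclear and cytosolic proteins, and much of it in the nucleus is bound to chromatin regulators. Its main partner is HCF1 (Hcfc1), a scaffold that transcription factors and histone methyltransferases bind, and that OGT both modifies and cleaves. TET enzymes oxidise methylated cytosine and bring OGT to promoters. BAP1 with an ASXL protein removes ubiquitin from a histone tail, FOXK proteins bring BAP1 to DNA, and SIN3A carries histone deacetylases to repressed genes.

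Ogt itself checks the labels. Control replicates 3 to 6 had 159.4, 117.9, 118.3 and 108.3 CPM (reads of a gene relative to the library's total, scaled between libraries by the TMM method), and knockdown replicates 2 to 5 had 74.43, 47.19, 41.67 and 35.99. All knockdown libraries lay below all controls. Library totals ran from 49802305 to 147747191 reads, and the least counted member, Tet1, had 292 to 1063 reads per library. Control replicate 3 and knockdown replicate 3 stood apart from their groups. The summed level of 10 endothelial markers was 944.3 CPM in control replicate 3, against 18.82 to 24.28 CPM in the other controls and 32.44 to 50.28 CPM in knockdown. Dopamine neuron markers (14 genes, Th, Ddc and Slc6a3 among them) were present in every library, at a summed 2220 to 3984 CPM in control and 1830 to 2467 CPM in knockdown. Most of the knockdown sum was Aldh1a1, the 1 marker of the list that rose, from 722.7 ± 201 to 1664 ± 258.8 CPM. The other 13 summed to 1561 to 3485 CPM in control and 485.3 to 756.5 CPM in knockdown, with no overlap. The libraries also held messages of other cells: 10 astrocyte markers summed to 1512 to 5663 CPM in control and 9773 to 13810 CPM in knockdown, and 10 microglia markers to 27.83 to 48.79 and 51.9 to 143.7 CPM. Gfap alone gave 236.9 to 1860 CPM of the astrocyte sums in control and 5372 to 8401 in knockdown. The lowest control sum was replicate 3, and the other controls had 3798 to 5663 CPM. Of the 10 astrocyte markers 7 lay higher in knockdown without overlap (17.1% of all genes tested did), and Aldoc, Slc1a3 and Slc7a10 overlapped. For 10 oligodendrocyte markers the sums were 1264 to 1877 and 1955 to 4453 CPM, and for 6 markers of GABA and glutamate neurons 1007 to 1471 and 551.1 to 717.4 CPM.

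The 3 members that changed were Hcfc1, which rose, and Foxk2 and Sin3a, which fell. The stretches before their transcription starts are shown because these are the messages the results turn on, and because their sequence can be set beside all other starts. They are the 250 bases upstream of the RefSeq start (GRCm38.p6), 5′ to 3′ on the strand of the gene, with capitals marking motif matches. RefSeq lists 2 starts for Sin3a.
Hcfc1, chrX:73966358-73966607, minus strand: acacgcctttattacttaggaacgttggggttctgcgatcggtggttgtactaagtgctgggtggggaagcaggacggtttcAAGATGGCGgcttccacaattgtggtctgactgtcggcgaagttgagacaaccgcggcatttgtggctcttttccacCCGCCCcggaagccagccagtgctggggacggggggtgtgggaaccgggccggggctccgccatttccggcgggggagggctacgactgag
Foxk2, chr11:121259737-121259986, plus strand: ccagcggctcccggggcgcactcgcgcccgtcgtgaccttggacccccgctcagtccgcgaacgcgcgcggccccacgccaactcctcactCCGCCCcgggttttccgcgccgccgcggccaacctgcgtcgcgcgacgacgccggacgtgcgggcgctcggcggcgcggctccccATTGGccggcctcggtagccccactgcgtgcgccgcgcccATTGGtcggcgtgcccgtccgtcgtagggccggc
Sin3a, outer start, chr9:57071790-57072039, plus strand: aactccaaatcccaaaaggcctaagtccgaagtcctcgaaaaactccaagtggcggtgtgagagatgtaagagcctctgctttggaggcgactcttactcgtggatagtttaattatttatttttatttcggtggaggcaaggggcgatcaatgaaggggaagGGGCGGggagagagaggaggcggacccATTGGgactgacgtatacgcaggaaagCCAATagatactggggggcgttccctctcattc
Sin3a, inner start, chr9:57076126-57076375, plus strand: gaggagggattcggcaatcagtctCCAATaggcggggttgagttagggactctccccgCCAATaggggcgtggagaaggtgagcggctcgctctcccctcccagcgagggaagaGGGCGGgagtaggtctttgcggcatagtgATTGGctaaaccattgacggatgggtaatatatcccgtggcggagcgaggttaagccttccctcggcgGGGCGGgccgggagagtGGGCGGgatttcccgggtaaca

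Of the 10 members, 9 had such a stretch in the RefSeq table, and Foxk1 had none. Motifs were searched on both strands: the GC box GGGCGG bound by SP and KLF factors, the CCAAT box CCAAT, ETS CCGGAAGT, NRF1 GCGCATGCG, CRE TGACGTCA, E-box CACGTG, FOXK GTAAACA, STAT TTCNNNGAA, YY1 AAGATGGCG and ZNF143/THAP11 ACTACAATT. No motif is part of another. All 9 held the GC box, which 32.7% of 32851 stretches of the same length held. The CCAAT box was found in 3 members, Foxk2, Sin3a and Tet3, and in 33.8% of all stretches. Hcfc1 was the 1 member with the YY1 letters, which 0.606% of all stretches held. Asxl2 was the 1 with the ETS letters (2.88% of all) and Bap1 the 1 with the E-box (6.02%). The STAT, FOXK, NRF1, CRE and ZNF143/THAP11 letters were in none of the 9. The share of G and C ran from 50.8% at the outer Sin3a start to 83.6% at Tet2, and the median of all stretches was 52.4%. CpG pairs, as observed over expected, ran from 0.562 at Tet3 to 1.28 at Foxk2, against a median of 0.373. The stretches of all genes were not matched to the members for either, so the GC box share is not read as a trait of the members. These matches are descriptions of sequence, and no binding was measured here.

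In controls, the members spanned a wide range of levels. Per kilobase of exon, Bap1 was the highest at 37.99 ± 1.441 RPKM (CPM per kilobase of summed exons; SD, n = 4), followed by Foxk2 (17.89 ± 2.075) and Hcfc1 (15.49 ± 3.442), whose ranges overlapped. Sin3a (5.468 ± 0.5133), Foxk1 (4.485 ± 0.5914) and Asxl1 (4.386 ± 0.2639) formed a middle group in which neighbours overlapped. Tet3 followed at 0.9663 ± 0.05846 RPKM. Asxl2 (0.6567 ± 0.08423) and Tet2 (0.5394 ± 0.1583) overlapped each other, and Tet1 was the lowest at 0.3713 ± 0.06879. In knockdown Hcfc1 ranked first, at 72.65 ± 55.03 RPKM, and Bap1 second, at 46.45 ± 4.545; the ranks of Tet3, Asxl2, Tet2 and Tet1 were as in controls.

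**Figure D1:**
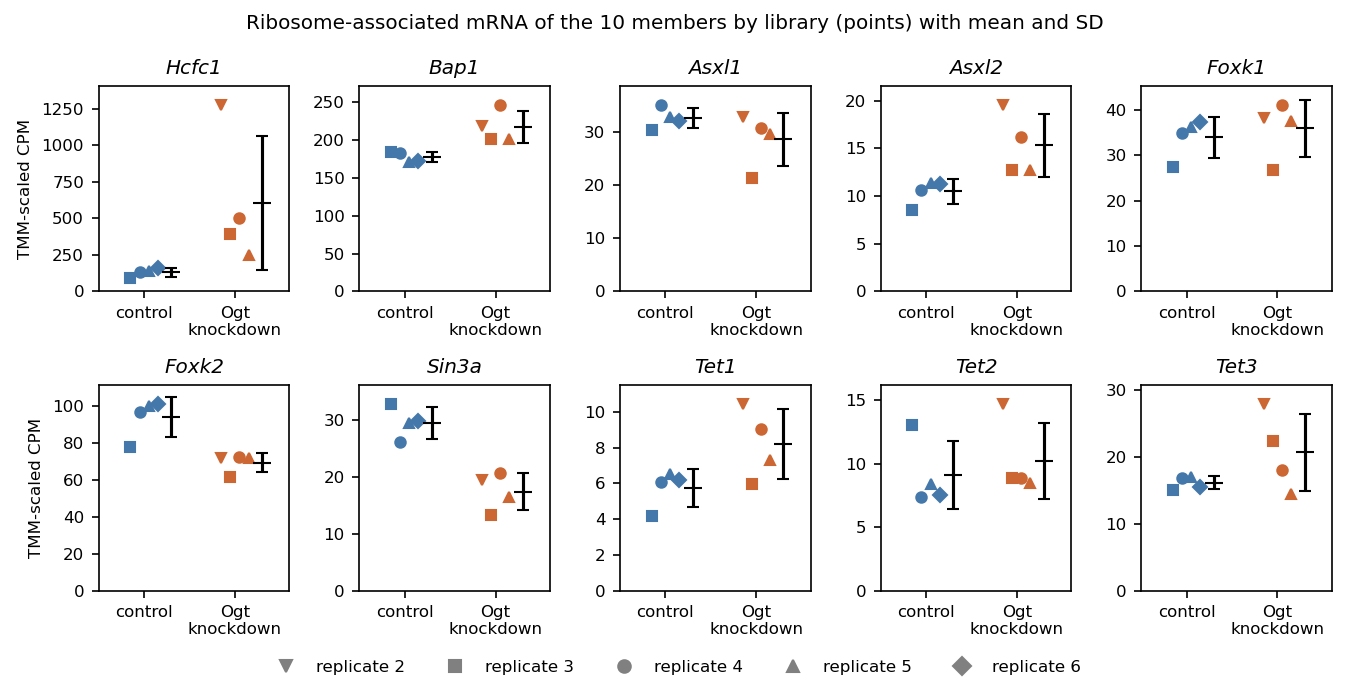
Level of each member in each library, in TMM-scaled CPM on a linear axis from 0, by group (4 libraries each); symbols give the replicate number and the black bar the mean and SD. Hcfc1 in knockdown replicate 2 stood at 1280 CPM, against 88.81 to 156.4 CPM in controls, while Foxk2 and Sin3a lay lower in all 4 knockdown libraries.

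Of the 10 members, 3 passed the test (30.0%), 1 higher and 2 lower. Over all genes tested the share was 28.5% (13.4% higher, 15.1% lower), so the share of members called was near that of genes at large. The groups did not overlap for 5 members, 3 higher (Hcfc1, Bap1, Asxl2) and 2 lower (Foxk2, Sin3a). Of all genes tested, 35.1% did not overlap, 17.1% higher and 18.0% lower. The median log2 fold change was 0.23 over the members and 0.00 over all genes. With both libraries numbered 3 left out, 6 members passed, 4 higher and 2 lower, and without control replicate 3 alone the count was 3. Over all genes these fits called 9565 of 20437 tested and 7198 of 20626, against 5668 of 19912 with all libraries.

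HCF1 is encoded by Hcfc1 (ENSMUSG00000031386.15, chromosome X, 72986398 to 73009963, GRCm39), and its message moved furthest of the members. In control replicates 3 to 6 it stood at 88.81, 133.9, 138.8 and 156.4 CPM. In knockdown replicates 2 to 5 it stood at 1280, 394.9, 502.7 and 252 CPM. Every knockdown library lay above every control library, and knockdown replicate 2 lay far above the other three. On average it rose from 129.5 ± 28.77 CPM to 607.4 ± 460 CPM (SD, n = 4), a log2 fold change of 2.23 (SE 0.46, edgeR adjusted p = 0.00754), or 4.691-fold. Without knockdown replicate 2 the log2 fold change was 1.55 (edgeR adjusted p = 0.00595). The counts are sums over the gene, so which exons hold these reads is not seen. The rise passed the threshold under all 18 alternative settings that were run, with log2 fold changes from 1.55 to 2.46. Knockdown replicate 2 was also the knockdown library with the most Ogt left, 74.43 CPM. The paralog Hcfc2 did not pass, at 20.14 ± 0.7456 CPM in control and 21.46 ± 2.877 CPM in knockdown (edgeR adjusted p = 0.654). As a share of the 2 HCF genes' summed RPKM, Hcfc1 went from 80.3% ± 3.50 in control to 93.3% ± 3.25 in knockdown (SD, n = 4), with ranges of 75.3% to 83.4% and 89.2% to 97.2%.

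Because Hcfc1 stood out, the genes around it on the X chromosome were then examined; they were chosen after its values were seen. Within 150000 bases of the Hcfc1 start, by the table's own coordinates, 7 other genes were tested. The start nearest to that of Hcfc1, at -104 bases, belongs to a gene on the other strand without a symbol here (ENSMUSG00000120229.1). It had 3.223, 0.362, 1.239 and 0.3654 CPM in knockdown replicates 2 to 5 and 0.2094 to 0.3132 CPM in controls (log2 fold change 2.25, SE 0.71, edgeR adjusted p = 0.0378). Knockdown replicates 3 and 5 lay just above the highest control, so its fold change rests on replicates 2 and 4. It shares no exon bases with Hcfc1. Counting did not use strand, and whether its reads came from the Hcfc1 message was not tested. Renbp, an N-acetylglucosamine epimerase gene whose start lies 35507 bases downstream, rose from 4.543 ± 1.193 to 9.125 ± 1.654 CPM (SD, n = 4; edgeR adjusted p = 0.0122). L1cam, a neural adhesion molecule gene 70252 bases downstream, fell from 121.1 ± 32.20 to 39.19 ± 12.61 CPM (edgeR adjusted p = 0.00188). Irak1, Naa10, Arhgap4 and Pdzd4 did not pass.

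**Figure D2:**
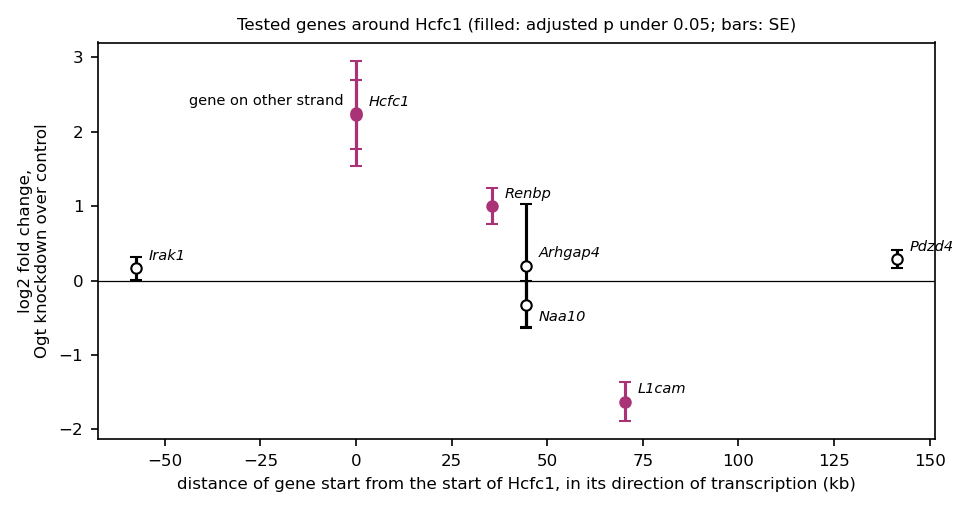
Log2 fold change (knockdown over control, n = 4 each) of the 8 tested genes around Hcfc1 against the distance of their start from that of Hcfc1, in kilobases along its direction of transcription; bars are SE and filled points passed the test. Hcfc1 (2.23, SE 0.46) and the gene that starts beside it (2.25, SE 0.71, at most 3.223 CPM in any library) lie on top of each other. Renbp lies above 0 and L1cam at -1.63.

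BAP1 is the catalytic subunit of the deubiquitinase, and ASXL1 and ASXL2 are alternative subunits that activate it. Bap1 (ENSMUSG00000021901.11, chromosome 14, 30973407 to 30981901) had 183.9, 183.5, 171.5 and 172.6 CPM in control replicates 3 to 6. Knockdown replicates 2 to 5 had 218.9, 201.8, 247.1 and 202.2 CPM. The groups did not overlap, but the test was missed (log2 fold change 0.29, SE 0.11, edgeR adjusted p = 0.0849). Asxl2 (ENSMUSG00000037486.19, chromosome 12, 3476857 to 3556852) had 8.513, 10.67, 11.40 and 11.29 CPM in control replicates 3 to 6 and 19.58, 12.71, 16.22 and 12.72 CPM in knockdown replicates 2 to 5. Here too the groups did not overlap and the threshold was narrowly missed (log2 fold change 0.55, SE 0.19, edgeR adjusted p = 0.0520). Bap1 passed in 7 of 18 alternative settings and Asxl2 in 8, always as higher. Asxl1 (ENSMUSG00000042548.15, chromosome 2, 153187749 to 153245927) had 30.41 to 35.16 CPM in control and 21.32 to 32.81 CPM in knockdown, which overlapped (log2 fold change -0.19, SE 0.15, edgeR adjusted p = 0.386).

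Set against each other within a library, the ASXL paralogs separated the groups. The Asxl1 to Asxl2 count ratio was 3.572, 3.295, 2.881 and 2.850 in control replicates 3 to 6 and 1.676, 1.678, 1.892 and 2.333 in knockdown replicates 2 to 5. Every knockdown library had the lower ratio. The mean log2 ratio was 1.65 ± 0.16 in control and 0.91 ± 0.22 in knockdown (SD, n = 4), a difference of -0.74. The exact two-sided permutation p over the 70 assignments of libraries was 0.0286, the smallest this design allows. Adjusted over the 5 paralog ratios compared it was 0.0715, over the threshold. It could not have passed unless a TET ratio also reached that smallest p, so no conclusion is drawn from the miss. Per exon length, Asxl2 made up 12% ± 1.01 of the summed ASXL message in control and 18.7% ± 2.20 in knockdown. Asxl1 made up 80.5% ± 2.11 and 74.9% ± 2.53, and Asxl3 7.54% ± 1.27 and 6.35% ± 0.372. A gene on the opposite strand shares 3.829% of the exon bases of Asxl1 and another shares 2.233% of those of Asxl2, and counting did not use strand.

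FOXK1 and FOXK2 are forkhead repressors that bind the BAP1 and SIN3A complexes. Foxk2 (ENSMUSG00000039275.10, chromosome 11, 121150816 to 121200722) had 77.90, 96.96, 100.2 and 101.1 CPM in control replicates 3 to 6. Knockdown replicates 2 to 5 had 71.68, 61.61, 72.12 and 71.79 CPM, all below every control. On average it fell from 94.05 ± 10.91 CPM to 69.30 ± 5.128 CPM (SD, n = 4), a log2 fold change of -0.44 (SE 0.12, edgeR adjusted p = 0.0241). It no longer passed when control replicate 4, 5 or 6 was left out, with edgeR adjusted p = 0.0595, 0.0726 and 0.0806. Foxk1 (ENSMUSG00000056493.10, chromosome 5, 142387252 to 142447766) had 27.45 to 37.38 CPM in control and 26.77 to 41.23 CPM in knockdown, with a log2 fold change of 0.08 (SE 0.17, edgeR adjusted p = 0.748). Its sign turned without control replicate 3 (-0.01) and without knockdown replicate 4 (-0.02).

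The Foxk1 to Foxk2 ratio was the tightest of the paralog ratios in controls. It was 0.3523, 0.3609, 0.3615 and 0.3698 in control replicates 3 to 6 and 0.5340, 0.4345, 0.5717 and 0.5254 in knockdown replicates 2 to 5. All knockdown libraries lay above all controls. The mean log2 ratio was -1.47 ± 0.03 in control and -0.96 ± 0.17 in knockdown, a difference of 0.51 (exact permutation p = 0.0286, adjusted 0.0715, over the threshold). As for the ASXL ratio, the adjusted value could not have passed unless a TET ratio also reached the smallest p. Per exon length, Foxk1 made up 20% ± 0.316 of the summed FOXK message in control and 26.3% ± 2.23 in knockdown.

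**Figure D3:**
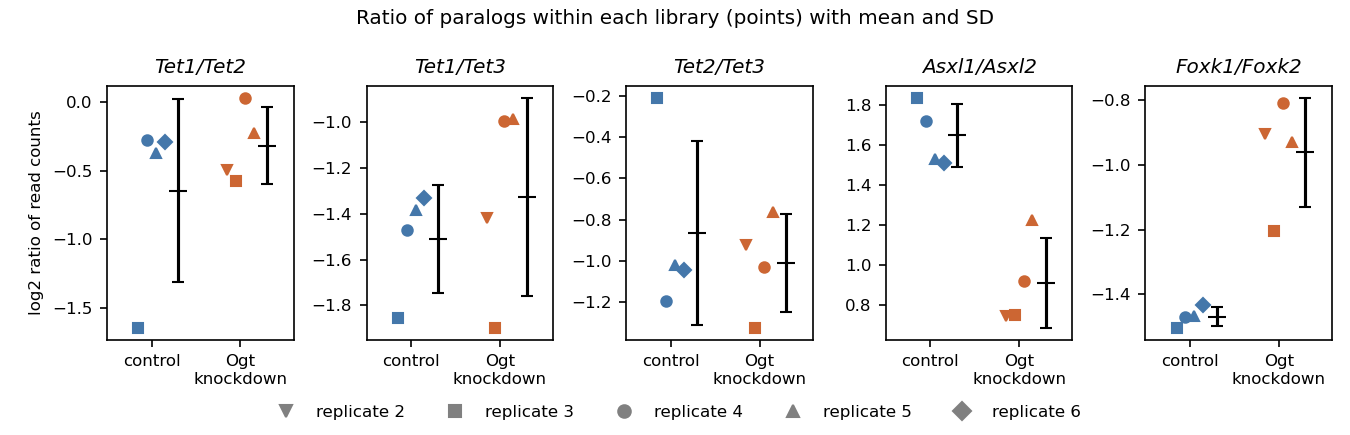
Log2 ratio of read counts of paralogs within each library, by group (n = 4 each), with mean and SD in black; each panel has its own axis. The groups lie apart for Asxl1/Asxl2 (1.65 against 0.91) and Foxk1/Foxk2 (-1.47 against -0.96) and overlap for the 3 TET ratios.

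SIN3A is a scaffold of histone deacetylase complexes. Sin3a (ENSMUSG00000042557.15, chromosome 9, 56979324 to 57035650) had 32.75, 25.99, 29.34 and 29.69 CPM in control replicates 3 to 6. Knockdown replicates 2 to 5 had 19.31, 13.18, 20.54 and 16.37 CPM. The highest knockdown library lay below the lowest control. On average it fell from 29.45 ± 2.764 CPM to 17.35 ± 3.284 CPM (SD, n = 4), a log2 fold change of -0.76 (SE 0.16, edgeR adjusted p = 0.00736). It stayed past the threshold when any 1 library was left out. With a block on replicate number the log2 fold change was -0.83 and did not pass (edgeR adjusted p = 0.0933). That fit compares only numbers both groups hold, so knockdown replicate 2 and control replicate 6 do not enter the comparison. Its paralog Sin3b did not pass, with 95.73 ± 6.824 CPM in control and 99.49 ± 13.34 CPM in knockdown (edgeR adjusted p = 0.778). Sin3a made up 29.6% ± 1.92 of the summed SIN3 message per exon length in control and 19.5% ± 4.80 in knockdown. A gene on the opposite strand, Man2c1os, shares 205 exon bases with Sin3a, 3.807% of its exons.

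The TET enzymes did not pass in this comparison. Tet1 (ENSMUSG00000047146.18, chromosome 10, 62640349 to 62744775) had 4.169, 6.097, 6.523 and 6.167 CPM in control replicates 3 to 6 and 10.45, 5.973, 9.062 and 7.284 CPM in knockdown replicates 2 to 5. Knockdown replicate 3 lay within the controls and the other three above them (log2 fold change 0.51, SE 0.23, edgeR adjusted p = 0.125). With both libraries numbered 3 left out the fold change was 0.51 and passed (edgeR adjusted p = 0.0222). Tet3 (ENSMUSG00000034832.16, chromosome 6, 83339355 to 83436066) had 15.08, 16.89, 17.03 and 15.53 CPM in control replicates 3 to 6. Knockdown replicates 2 to 5 had 27.91, 22.30, 18.04 and 14.43 CPM, so that replicate 5 lay below all controls and the others above (log2 fold change 0.36, SE 0.20, edgeR adjusted p = 0.203). Tet2 (ENSMUSG00000040943.13, chromosome 3, 133169440 to 133250900) had 13.05, 7.391, 8.415 and 7.547 CPM in control replicates 3 to 6. Knockdown replicates 2 to 5 had 14.73, 8.905, 8.848 and 8.510 CPM. Apart from control replicate 3 and knockdown replicate 2, its 6 libraries lay between 7.391 and 8.905 CPM. Its log2 fold change was 0.17 (SE 0.25, edgeR adjusted p = 0.650) and turned to -0.07 without knockdown replicate 2. Of the summed TET message per exon length, Tet3 made up 51.5% ± 3.61 in control and 51.9% ± 5.38 in knockdown, Tet2 28.6% ± 7.48 and 25.5% ± 2.07, and Tet1 19.9% ± 4.03 and 22.6% ± 4.41. The exact permutation p of the 3 TET ratios was 0.514 (Tet1/Tet2), 0.571 (Tet1/Tet3) and 0.657 (Tet2/Tet3), and each was 0.657 adjusted over the 5 ratios.

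**Figure D4:**
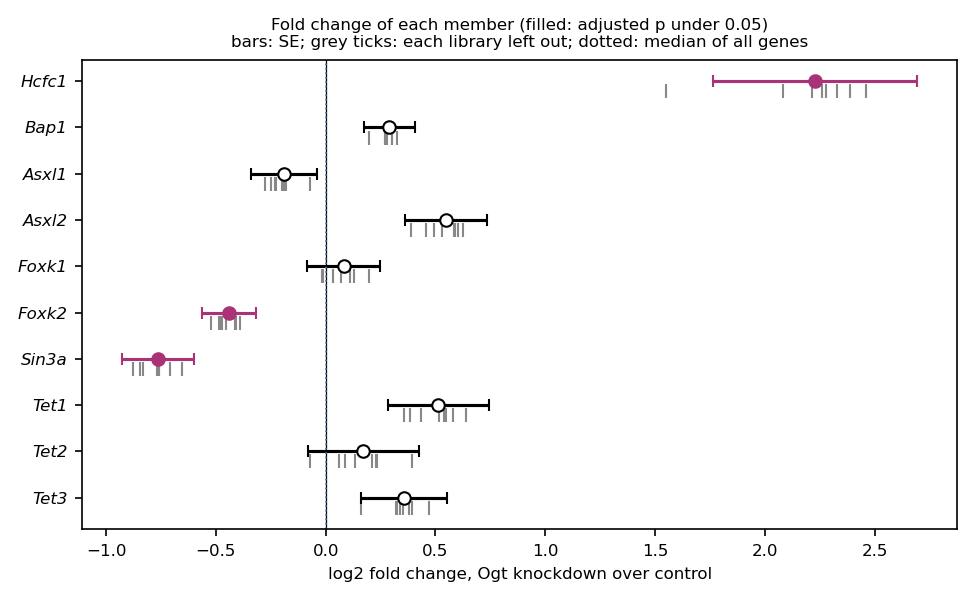
Log2 fold change of each member, knockdown over control (n = 4 each), with SE; filled points passed the edgeR test and grey ticks give the value with each library left out in turn. Hcfc1 (2.23) is highest, its lowest tick (1.55) being the fit without knockdown replicate 2, and Sin3a (-0.76) is lowest.

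Other genes of the same complexes were read from 7 lists holding 119 tested genes. Of these, 20 rose and 20 fell (33.6%, against 28.5% of all genes), with a median log2 fold change of -0.06. The 6 PR-DUB partners held 1 change. Ube2o, a ubiquitin ligase gene for BAP1, fell from 187.5 ± 7.771 to 101.9 ± 19.11 CPM (SD, n = 4; edgeR adjusted p = 0.00219), and Asxl3 did not pass (adjusted p = 0.289). Of 21 HCF1-associated genes 4 rose and 2 fell. Creb3 rose 1.582-fold and Crebzf 1.577-fold, both encoding transcription factors that bind HCF1, and Gabpa, an ETS factor, rose 1.385-fold. Men1, a subunit of the menin methyltransferase complexes, fell 1.767-fold, and Wdr82, a SET1 complex subunit, 1.332-fold. Gabpa no longer passed without any 1 of 6 libraries (all but the pair numbered 3), and Wdr82 without knockdown replicate 2 or control replicate 4 or 6. Wdr5 (adjusted p = 0.902), Kmt2a (0.698) and Setd1a (0.469) did not pass; these 3 were chosen after their values were seen. With 1 library left out the changed genes of this list numbered 3 (without control replicate 4 or 6) to 8 (without knockdown replicate 3), and 9 without both libraries numbered 3.

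The NSL complex is a histone acetyltransferase assembly that holds both HCF1 and OGT. Of its 7 genes 1 rose and 1 fell. Kansl3 had 158.0, 150.3, 142.8 and 159.1 CPM in control replicates 3 to 6 and 429.4, 237.1, 271.6 and 208.8 CPM in knockdown replicates 2 to 5. It rose from 152.6 ± 7.625 to 286.7 ± 98.54 CPM (SD, n = 4). The log2 fold change was 0.91 with an SE of 0.21, and the edgeR adjusted p was 0.0101. The knockdown libraries took the same order for Kansl3 as for Hcfc1, with replicate 2 highest and replicate 5 lowest. This was noticed after the values were seen, and a link between the 2 genes was not tested. Without knockdown replicate 2 the log2 fold change of Kansl3 was 0.63 (edgeR adjusted p = 0.0120). Phf20, a reader subunit of the complex, fell 1.510-fold, and not past the threshold without control replicate 4 (edgeR adjusted p = 0.0513), which left 1 changed gene in the list. Without knockdown replicate 3 there were 3.

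Of 19 tested SIN3 complex genes and recruiters 3 rose and 2 fell. Rest, a zinc finger repressor of neuronal genes that recruits SIN3A, had 4.899, 6.472, 6.829 and 7.016 CPM in control replicates 3 to 6 and 26.09, 20.24, 21.67 and 21.05 CPM in knockdown replicates 2 to 5. The groups lay far apart (log2 fold change 1.82, SE 0.17, edgeR adjusted p = 0.000184). Suds3 rose 1.555-fold and Sap30l 1.481-fold, both subunits of the complex; Sap30l did not pass without knockdown replicate 2 or control replicate 4 or 6. Brms1l, another subunit, fell from 75.22 ± 5.729 to 34.21 ± 6.115 CPM, and Mnt, a MAX partner that recruits SIN3, from 40.38 ± 6.296 to 19.12 ± 0.4479 CPM (edgeR adjusted p = 0.000817 and 0.000777). The deacetylase genes Hdac1 and Hdac2, chosen after their values were seen, did not pass (adjusted p = 0.634 and 0.224). With 1 library left out 4 to 8 genes of this list changed, 8 without knockdown replicate 3. Without both libraries numbered 3, 9 changed, 4 higher and 5 lower.

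Genes that write, read or remove DNA methylation moved in both directions. Of 23, 6 rose and 4 fell (43.5%, against 28.5% of all genes), and 7 to 12 changed with 1 library left out. Gadd45g, of a family linked to active demethylation, rose 2.285-fold. Mbd2 and Mbd3, of the methyl-CpG binding domain family, rose 1.532-fold and 1.439-fold. Tdg, the glycosylase that excises the bases TET enzymes produce, fell from 21.52 ± 1.059 to 13.45 ± 1.618 CPM (SD, n = 4; edgeR adjusted p = 0.00565). Uhrf2 fell from 53.72 ± 4.641 to 35.80 ± 2.776 CPM and Cxxc5, which encodes a CXXC protein related to TET partners, fell 1.451-fold. The methyltransferase genes Dnmt1 (adjusted p = 0.770), Dnmt3a (0.327) and Dnmt3b (0.819), chosen after their values were seen, did not pass.

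Of 31 Polycomb genes 3 rose and 6 fell. Bmi1, a subunit of the ubiquitin ligase that BAP1 opposes, rose 1.823-fold, Phf19 3.299-fold from a low level (0.9835 ± 0.5631 CPM in control), and the deubiquitinase gene Usp16 1.375-fold. Phf19 did not pass without knockdown replicate 4 or control replicate 6, nor Usp16 without any 1 of the 6 libraries not numbered 3. The chromodomain genes Cbx6 and Cbx8 fell 1.798-fold and 1.796-fold. Without both libraries numbered 3, 20 Polycomb genes changed, 9 higher and 11 lower, and without control replicate 3 alone 13 did. At the other end 6 changed without knockdown replicate 2 or 4, and the number that rose was 1 without knockdown replicate 4 or control replicate 6. Of 14 other forkhead genes 3 rose (Foxn2, Foxo1 and Foxo4, by 1.815-fold, 1.799-fold and 1.731-fold) and 4 fell. Foxa2, which dopamine neurons need, fell from 23.08 ± 15.40 to 7.483 ± 1.380 CPM, with control replicate 3 at 46.12 CPM and the other controls at 13.97 to 16.37. Foxp4 and Foxp2 fell 1.668-fold and 1.703-fold, and Foxa1, the remaining one, was named after its values were seen.

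**Figure D5:**
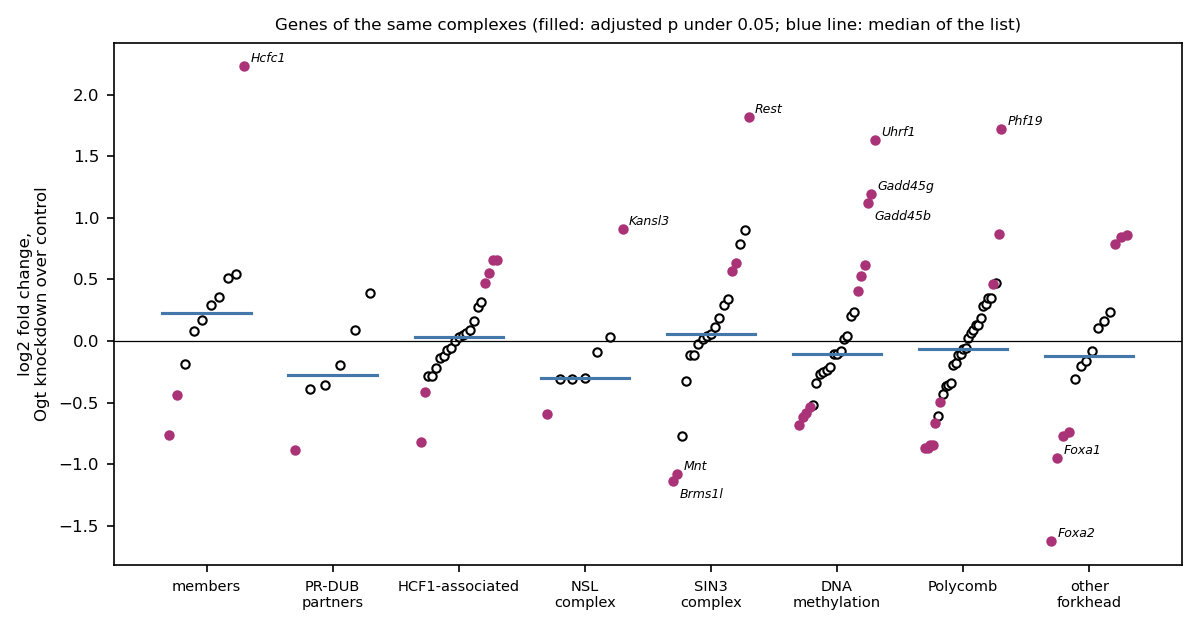
Log2 fold change (knockdown over control, n = 4 each) of the members and of each tested gene in the 7 related lists; filled points passed the edgeR test, blue lines are list medians, and changed genes beyond 0.88 in either direction are named. Medians lie between -0.30 and 0.23, and changes run in both directions in every list but the PR-DUB partners, which held 1.

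Markers of cell types moved in the same libraries. Of 14 dopamine neuron markers 11 fell and 1 rose, and of 6 GABA and glutamate neuron markers 5 fell. Of 10 microglia markers 7 rose, of 10 oligodendrocyte markers 5 and of 10 astrocyte markers 3. Without control replicate 3, 9, 7 and 6 of these rose. Leaving out 1 other library lowered or kept these counts, except that 6 oligodendrocyte markers rose without knockdown replicate 3 or 5. The oligodendrocyte count was 1 without knockdown replicate 2 or control replicate 4 or 6, and 3 without knockdown replicate 4 or control replicate 5. The astrocyte count was 1 without knockdown replicate 2, 4 or 5 or control replicate 4 or 6, and the microglia count was 6 at the lowest. No endothelial marker passed with all libraries (1 had an unadjusted p under 0.05, DESeq2 called 0 and limma-voom 4), and 6 rose without control replicate 3. In these bulk libraries, fewer cells of a type, less RNA per cell and more carry-over from untagged cells cannot be told apart. The part of these markers in the members' values was not tested.

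For each member, the tested gene with a symbol that had the most similar log2 CPM over the 8 libraries was found by Pearson correlation. It was Pcsk6 for Hcfc1 (r = 0.987), Tulp4 for Tet1 (0.990), Ccdc187 for Tet2 (0.983), Siglec1 for Tet3 (0.964) and 2810002D19Rik for Bap1 (0.965). It was Kcnma1 for Asxl1 (0.997), Acp2 for Asxl2 (0.993), Pou3f4 for Foxk1 (0.986), Scrt2 for Foxk2 (0.994) and St8sia5 for Sin3a (0.990). The points share libraries and groups, and each is the highest over all tested genes with a symbol, so the values are descriptions.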

How the data were processed

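The data are read counts per gene in 8 libraries (4 Ogt knockdown, 4 control). The authors deposited whole-number counts made with featureCounts 2.0.3 over exons of GENCODE vM30, per the file headers; its command line sets no strandedness, counts reads rather than pairs, and leaves out reads that align or belong to several places. The submitters' processing notes list FastQC, Trimmomatic, STAR and the build mm10, without tool versions; vM30 describes GRCm39, and this conflict was not resolved. Gene coordinates are the table's, promoter coordinates GRCm38.p6. Symbols came from GENCODE M21 by gene ID (52073 of 56691 matched; unmatched IDs held 0.327% to 1.809% of reads). Exon length is the deposited Length column.

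Genes were filtered with filterByExpr, scaled by TMM and tested with edgeR 4.0.16 (glmQLFit, robust, and glmQLFTest, two-sided) in R 4.3.3, with Benjamini-Hochberg adjustment over 19912 genes and a threshold of 0.05. The SE of a log2 fold change was taken as its absolute value over the square root of the F statistic. Log2 CPM used a prior count of 2. Paralog ratios were compared by exact permutation of libraries. A count of 3 reads equals 0.0203 to 0.0602 CPM, for counting error only. No libraries of a group were duplicates (chi-square per degree of freedom 25.0 to 463). Other settings tried were scaling by RLE or upper quartile, dropping the filter or requiring 1 CPM in 4 libraries, DESeq2 1.42.0, limma-voom 3.58.1 with quality weights, a non-robust fit, a block on replicate number, an offset for gene length, a threshold of 0.01, 0.5 CPM added to ratios, and leaving out each library or both numbered 3. The test was tried on simulated data. The members and lists were chosen with earlier results of these data known. The rule for named genes was the members, Ogt, up to 3 genes with the smallest p per direction of each list, and the gene most like each member; others are said to be chosen later. One result under this rule is not reported here.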

Additional observations from a re-analysis of the deposited data

Results flagged for a closer look

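Of 32 groups of 4 libraries checked, which are the levels of the members and of Ogt and the paralog ratios in each group, 3 had a library far from the other three by Dixon's test at 95%; chance gives about 1 in 20. Tet2 in knockdown replicate 2 stood at 14.73 CPM, against 8.51 to 8.905 CPM in the other knockdown libraries. Foxk2 in knockdown replicate 3 stood at 61.61 CPM, against 71.68 to 72.12 CPM. The Tet1/Tet2 log2 ratio in control replicate 3 was -1.646, against -0.3675 to -0.2778 in the other controls. Without control replicate 3 the difference of this ratio between groups was -0.00337.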

How the results depend on the processing

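Over all 19912 genes 5668 changed (2659 higher, 3009 lower), and of the members 3 (1 higher, 2 lower). Over all genes limma-voom called 10218 (5251 higher, 4967 lower), the replicate block 1258 (480, 778), the fits without both libraries numbered 3 called 9565 (4805, 4760) and an adjusted p of 0.01 left 2679 (1116, 1563). Upper quartile scaling, which put the median log2 fold change of all genes at 0.0914, split the calls 3176 higher and 2432 lower. Leaving out 1 library gave 3876 (without control replicate 6) to 7198 (without control replicate 3), higher 1684 to 3723, lower 2140 to 3475. Of the members, upper quartile scaling, the strict filter, DESeq2 and the length offset called 5 (3 higher, 2 lower), RLE 4 (2 higher), limma-voom and the fit without both libraries numbered 3 called 6 (4 higher, 2 lower), and an adjusted p of 0.01 left 2 (1 higher, 1 lower). Leaving out 1 library gave 2 to 5 members (higher 1 to 3, lower 1 to 2), 2 without control replicate 4, 5 or 6 and 5 without knockdown replicate 3.

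Whether equal replicate numbers pair the samples was not settled. The correlation of deviations was 0.104 for number 3, 0.0987 for 4 and 0.0422 for 5. Between a knockdown and a control library of unequal numbers it ran from -0.103 to 0.0808. The replicate block compares only numbers 3, 4 and 5, which both groups hold. Knockdown replicate 2 and control replicate 6 do not enter it, so it has less power than the main fit. With the replicate block, 1 member changed (1 higher, 0 lower): Hcfc1. Sin3a (-0.83, adjusted p = 0.0933) and Foxk2 (adjusted p = 0.117) did not pass, and Tet2 turned to -0.0916. In the 7 related lists the block left 3 changed SIN3 complex genes, 1 changed Polycomb gene and 0 elsewhere.

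The sign turned for Tet2 without knockdown replicate 2 (range over libraries left out -0.0691 to 0.394), Foxk1 without knockdown replicate 4 or control replicate 3 (-0.0154 to 0.200), Tet1/Tet2 without control replicate 3 (-0.00337 to 0.453) and Tet2/Tet3 without control replicate 3 (-0.253 to 0.0747) or both libraries numbered 3 (0.18). None of these passed. With libraries left out the exact test of the ratios has fewer assignments, so a missed threshold there says nothing of stability. Depth did not keep any member from being tested; Tet1 and Tet2 rest on the fewest reads.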
